A study of Mus musculus with 6 samples.

Results

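Eps8, Actn1, Palld, Myo1c and Ptpro are 5 genes grouped here as actin cytoskeleton regulators, followed in whole bone marrow of leukemic mice. They were taken by gene symbol from the authors' deposited comparison table, where 7 probe sets carry them. Eps8 has 3 of these probe sets and each other gene has 1. Any further probe set of these genes on the array would be blank there and is not described here. That table is filled only for the 4.41% of all 45101 probe sets whose unadjusted p between the genotypes was under 0.05, and the 5 genes were picked with results of the same arrays known. Their differences are therefore given as a description, without a test.

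Mice labelled Gfi1 KD (here Gfi1-KD) and mice labelled Gfi1 KI (here Gfi1-KI) gave 3 arrays each. The labels number the samples separately but do not say that each is another mouse, so the spread between arrays may be partly technical. All the mice carried the Nup98/HoxD13 fusion transgene under Vav-1, a promoter active in blood cells, and were adult and of the same age, which the labels do not state in numbers. As background, the KI allele holds human GFI1 at the mouse locus and the KD allele a version of it with reduced expression. Gfi1 is a transcriptional repressor of blood cell development. Cells were taken after lysis of red cells, 200 ng of total RNA were labelled, and Affymetrix Mouse Genome 430 2.0 arrays were read. The marrow was not sorted, so fewer cells of a type and less RNA per cell cannot be told apart.

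Actin filaments grow at their barbed ends, are capped, bundled and cross-linked by binding proteins, and are pulled on by myosins. In blood cells this network carries migration, adhesion and uptake of particles. Among the 5 genes, Eps8 encodes a barbed-end capping and bundling protein that also takes part in Rac signalling. Actn1 encodes alpha-actinin, which cross-links filaments and links them to adhesions, and Palld encodes palladin, a scaffold that binds alpha-actinin and Eps8. Myo1c encodes a single-headed myosin that ties membranes to actin. Ptpro encodes a receptor-type tyrosine phosphatase best known from podocytes of the kidney. In the gene ontology terms of the deposited table, 4 of the 5 genes have a term with the word actin, and Ptpro has none. Of the 1512 genes named there by 1 symbol, 71 have such a term (4.7%).

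In the listed probe sets, Eps8 and Ptpro had higher signals in Gfi1-KD than in Gfi1-KI. Actn1 had lower ones, and Myo1c was higher by a small margin. The Palld probe set lay near the floor of the scale and its sign depended on how the signal was summarised. In the log2 RMA signals the groups did not overlap for 7 of the 7 probe sets, but this holds for 99.9% of the listed probe sets and follows from how the table was selected. A difference of 2-fold or more was present in 5 of the 7, against 7.04% of the listed probe sets. Nothing is read from these counts, because the 5 genes were chosen on this contrast.

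**Figure D1:**
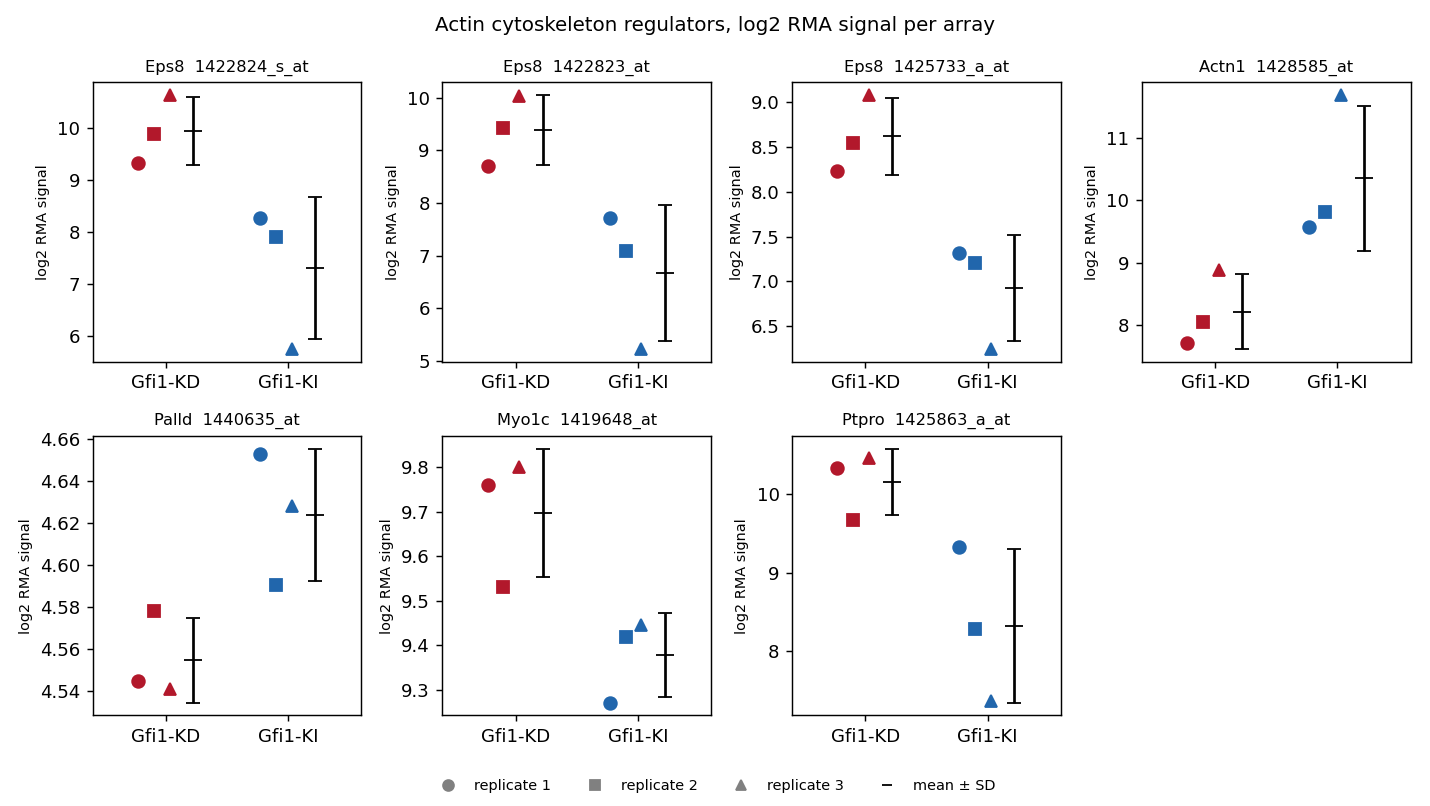
Log2 RMA signal of each of the 7 probe sets (vertical axis, a different range in each panel) for the 3 Gfi1-KD and the 3 Gfi1-KI arrays, with the symbol giving the replicate and the black bar the mean ± SD. Gfi1-KI replicate 3 is the lowest Gfi1-KI array for Eps8 and Ptpro and the highest for Actn1, and the Palld signals all lie between 4.54 and 4.65.

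Eps8 (chromosome 6, 137477245 to 137649397, minus strand, build 38) was measured by 3 listed probe sets. In the probe set with the highest mean, 1422824_s_at, the log2 RMA signals were 9.32, 9.88 and 10.64 in Gfi1-KD replicates 1, 2 and 3, against 8.27, 7.89 and 5.74 in Gfi1-KI. Every Gfi1-KD array was above every Gfi1-KI array, with 1.05 between the lowest of the first and the highest of the second. The mean was 9.95 ± 0.66 in Gfi1-KD, against 7.30 ± 1.36 in Gfi1-KI (SD over 3 arrays here and below), which is 6.25-fold. Gfi1-KI replicate 3 decided much of that size: without it the fold was 3.64.

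The second Eps8 probe set, 1422823_at, was designed from the same transcript and read 8.70, 9.43 and 10.03 in Gfi1-KD, against 7.71, 7.09 and 5.23 in Gfi1-KI. It ordered the 6 arrays in the same way, with means of 9.39 ± 0.66 in Gfi1-KD, against 6.67 ± 1.29 in Gfi1-KI (6.56-fold, and 3.97-fold without Gfi1-KI replicate 3). The third, 1425733_a_at, was designed from a different clone whose alignment begins 78332 bases inside the gene's 5′ end. It read 8.23, 8.54 and 9.08 in Gfi1-KD, against 7.32, 7.20 and 6.24 in Gfi1-KI. Its order of arrays was again the same, but its span was narrower, with means of 8.62 ± 0.43 in Gfi1-KD, against 6.92 ± 0.59 in Gfi1-KI (3.24-fold).

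The first and second Eps8 probe sets kept a log2 distance of 0.45 to 0.81 on all 6 arrays. The distance between the first and the third was between 1.09 and 1.56 in Gfi1-KD and between -0.50 and 0.95 in Gfi1-KI, lowest on Gfi1-KI replicate 3. Each of the 3 matched 5 RefSeq transcripts of Eps8 with all of its 11 probes. The deposited annotation also notes cross-hybridising probes for each: 1 probe for the first, 8 and 1 for the second and 4 for the third. These notes name sequence records and not genes, so whether a record belongs to Eps8 itself or to another gene was not settled.

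In the MAS5 signals, a second summary of the same arrays, the first Eps8 probe set read 1489, 2363 and 4088 in Gfi1-KD, against 859, 584 and 173 in Gfi1-KI. The groups were apart here too, with a log2 difference of 2.46 ± 0.64 (SE). Each SE comes from a fit over the 22519 probe sets at or above the median level. The other probe sets of the gene differed by 2.68 ± 0.78 and 1.92 ± 0.47. All 3 therefore had the same sign and about the same size in both summaries.

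Ptpro (chromosome 6, 137252299 to 137464634, plus strand) is the gene beside Eps8. The reference table places 12610 bases and no other gene between the end of Ptpro and the start of Eps8's interval, and since the strands are opposite, the 3′ ends of the pair face each other. Its log2 RMA signals were 10.33, 9.68 and 10.47 in Gfi1-KD, against 9.33, 8.28 and 7.37 in Gfi1-KI. The lowest Gfi1-KD array was 0.34 above the highest Gfi1-KI array, a smaller gap than for Eps8. Means were 10.16 ± 0.42 in Gfi1-KD, against 8.33 ± 0.98 in Gfi1-KI (3.57-fold). Its probe set matched 4 RefSeq transcripts of Ptpro with all 11 probes, and the deposited annotation notes 4 cross-hybridising probes for it. Here too the gene of the matching record is not given. In MAS5 the signals were 3047, 2074 and 3192 in Gfi1-KD, against 1422, 738 and 339 in Gfi1-KI, with a log2 difference of 1.94 ± 0.51 (SE).

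Among the Gfi1-KI arrays, Eps8 and Ptpro shared their order, highest on replicate 1 and lowest on replicate 3. Among the Gfi1-KD arrays both were highest on replicate 3, but the lowest was replicate 1 for Eps8 and replicate 2 for Ptpro. Within 1000000 bases on either side of the pair the reference table holds 23 protein-coding genes, and the deposited comparison names 3 of them. It names 5.97% of all protein-coding genes. Ptpro and Eps8 set the window and were chosen from that comparison, so nothing is read from the count. The other named gene is Mgst1, a microsomal glutathione transferase, with a 1.20-fold higher RMA signal in Gfi1-KD. The other genes of that window are unnamed in the deposited table and were not analysed here.

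The listed probe set of Actn1 (chromosome 12, 80167542 to 80260420, minus strand) has a target that aligns over 4634 bases at the gene's 3′ end. The percent identity given for that alignment was 73.4, the lowest of the 7 probe sets, against 90.02 to 99.4 for the others. Its design description names 3110023F10Rik, while the deposited annotation assigns it to Actn1. It matched 1 RefSeq transcript with all 11 probes. Its log2 RMA signals were 7.72, 8.04 and 8.88 in Gfi1-KD, against 9.57, 9.81 and 11.69 in Gfi1-KI. Every Gfi1-KD array was below every Gfi1-KI array, by at least 0.68. The mean was 8.21 ± 0.60 in Gfi1-KD, against 10.36 ± 1.16 in Gfi1-KI, a difference of -2.14, which is 4.41-fold lower. Gfi1-KI replicate 3 was again the array farthest out, and without it the fold was 2.78. The MAS5 signals were 406, 451 and 1038 in Gfi1-KD, against 1511, 1894 and 6564 in Gfi1-KI, a log2 difference of -2.21 ± 0.62 (SE).

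Among the Gfi1-KI arrays Actn1 ran opposite to Eps8 and Ptpro, highest on replicate 3 and lowest on replicate 1. Among the Gfi1-KD arrays it did not: replicate 3 had the highest signal of Actn1, of Eps8 and of Ptpro alike.

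**Figure D2:**
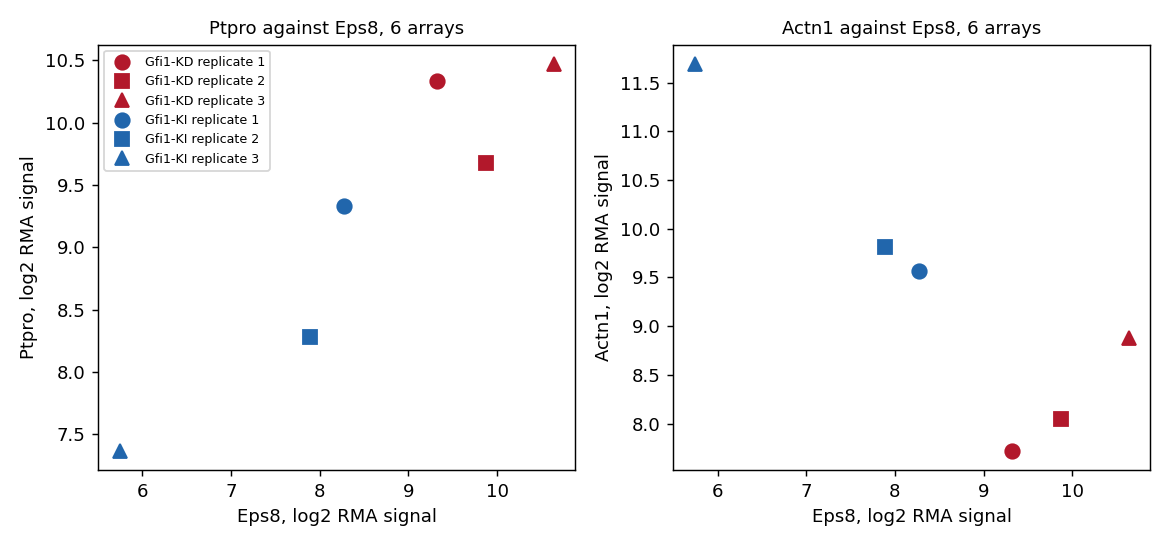
Log2 RMA signal of Ptpro (left) and of Actn1 (right) against that of Eps8 (its probe set with the highest mean) on the 6 arrays, with Gfi1-KD in red and Gfi1-KI in blue and a symbol for each replicate. Gfi1-KI replicate 3 lies at 5.74 on the Eps8 axis, with the lowest Ptpro signal (7.37) and the highest Actn1 signal (11.69).

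Sequences upstream of Ptpro and Actn1 are shown because these genes had opposite differences and Gfi1 binds DNA through an AATC core. RefSeq windows of 300 bases in GRCm38.p6, from 250 before to 50 after a start, matched 4 of the 5 genes (Ptpro, Actn1, Palld and Myo1c). AATC and the longer AAATCA, which contains it, were searched on both strands. Capitals mark AATC or its reverse complement GATT.
Ptpro, chr6:137252049-137252348, plus strand: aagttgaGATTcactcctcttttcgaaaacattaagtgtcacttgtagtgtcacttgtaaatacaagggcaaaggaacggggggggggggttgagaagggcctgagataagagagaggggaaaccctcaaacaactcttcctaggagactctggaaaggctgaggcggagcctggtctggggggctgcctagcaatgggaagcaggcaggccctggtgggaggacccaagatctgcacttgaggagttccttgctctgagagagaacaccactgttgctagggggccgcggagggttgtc
Actn1, chr12:80260314-80260613, minus strand: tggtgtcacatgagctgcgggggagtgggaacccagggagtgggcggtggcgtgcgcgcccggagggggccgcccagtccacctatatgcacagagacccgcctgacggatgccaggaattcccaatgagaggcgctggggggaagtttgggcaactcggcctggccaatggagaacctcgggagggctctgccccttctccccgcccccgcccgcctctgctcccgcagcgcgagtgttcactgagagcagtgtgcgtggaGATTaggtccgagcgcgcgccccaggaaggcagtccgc

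Each of these windows held 1 AATC and 0 AAATCA. Of 32851 windows of this length, 73.1% held AATC and 14% held AAATCA, so the core is common. The 3 windows of Palld held 3, 1 and 1 AATC and 1 AAATCA each, and the 3 of Myo1c held 0, 2 and 0 AATC and no AAATCA. GC content was 54.7% for the Ptpro window and 68.3% for that of Actn1.

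Myo1c (chromosome 11, 75650519 to 75674643, plus strand) had log2 RMA signals of 9.76, 9.53 and 9.80 in Gfi1-KD, against 9.27, 9.42 and 9.45 in Gfi1-KI. The groups were 0.09 apart, less than the range of 0.27 within Gfi1-KD. Means were 9.70 ± 0.14 in Gfi1-KD, against 9.38 ± 0.09 in Gfi1-KI (1.25-fold). The MAS5 signals were 1524, 1202 and 1593 in Gfi1-KD, against 1023, 1082 and 999.9 in Gfi1-KI, with a log2 difference of 0.47 ± 0.20 (SE). The probe set matched 3 RefSeq transcripts of the gene with all 11 probes, and the deposited annotation notes no cross-hybridisation for it, nor for those of Actn1 and Palld.

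Palld (chromosome 8, 61511431 to 61902707, minus strand) was represented by a probe set built from an expressed sequence tag. Its target, 61683503 to 61684168, lies inside the gene interval, downstream of the starts at 61902707 and 61760089 and upstream of the start at 61591139. It matched 0 RefSeq transcripts with all 11 probes, and 1 other transcript model. The log2 RMA signals were 4.55, 4.58 and 4.54 in Gfi1-KD, against 4.65, 4.59 and 4.63 in Gfi1-KI, and the groups were 0.01 apart. The mean was 4.55 ± 0.02 in Gfi1-KD, against 4.62 ± 0.03 in Gfi1-KI, which is 1.05-fold lower.

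The MAS5 signals of Palld were 63.2, 63.0 and 33.8 in Gfi1-KD, against 26.8, 52.2 and 39.0 in Gfi1-KI. They overlapped, with a mean log2 difference of 0.44, opposite in sign to that of the RMA signals. All 6 values were under 124, the median level below which probe sets were left out of the fit. Palld was the only one of the 7 probe sets below it. It was also the only one whose sign differed between the summaries, while 88.7% of all listed probe sets had 1 sign in both.

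**Figure D3:**
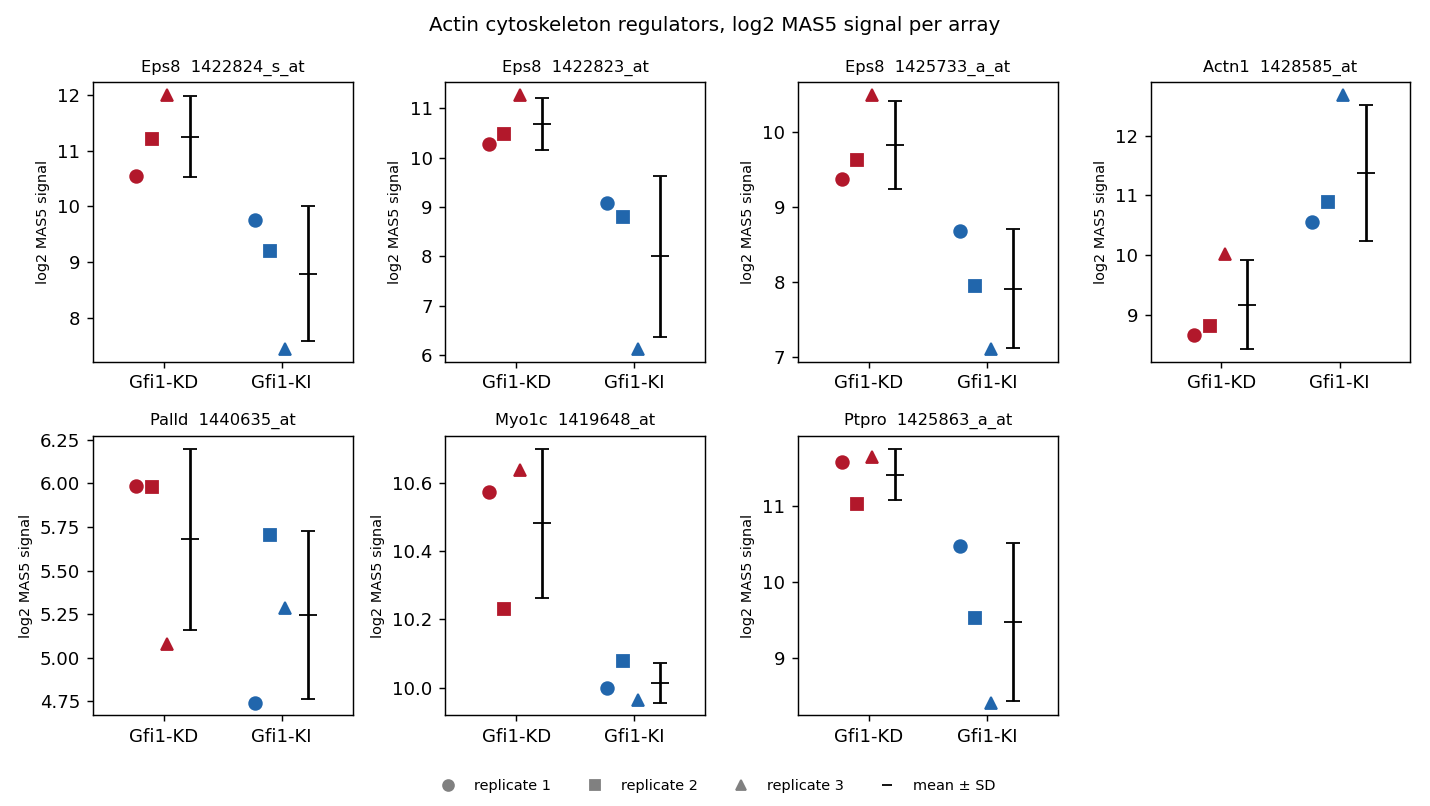
Log2 MAS5 signal of the 7 probe sets (vertical axis, a different range in each panel) for the 3 Gfi1-KD and the 3 Gfi1-KI arrays, with the mean ± SD in black. The groups overlap for Palld, whose Gfi1-KD signals run from 5.08 to 5.98, against 4.74 to 5.70 for Gfi1-KI, and for no other probe set shown.

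Over the whole array, limma on the MAS5 signals called 0 of 22519 probe sets at a Benjamini-Hochberg adjusted p of 0.05 (0%), so none of the 6 Eps8, Ptpro, Actn1 and Myo1c probe sets in that fit passed. Without adjustment, 1217 had a p under 0.05 (5.4%), and a plain analysis of variance called 1 after adjustment, which is none of the 7. In MAS5 the groups did not overlap for 6 of the 7 probe sets described here, beside 11.3% of the probe sets in the fit. The 7 were chosen on this contrast and the probe sets in the fit were not, so nothing is read from these shares. In the authors' deposited table the unadjusted p-values of the 7 run from 0.0158 (Eps8, 1425733_a_at) to 0.0471 (Actn1), and each has the same step-up adjusted p of 0.911.

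**Figure D4:**
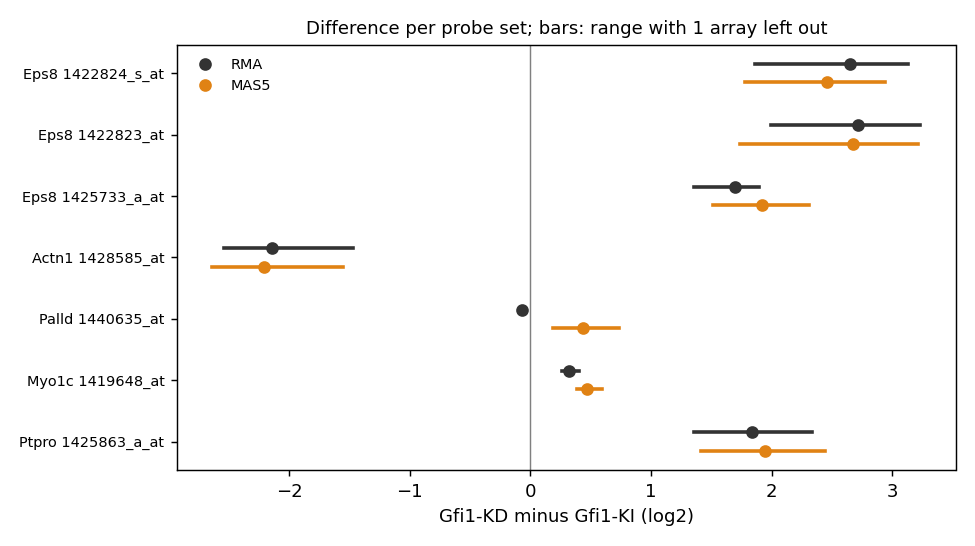
Difference in mean log2 signal, Gfi1-KD minus Gfi1-KI, for each probe set in the RMA (black) and MAS5 (orange) signals, with bars that span the values obtained when each array is left out in turn. No bar crosses 0, and the RMA and MAS5 points of Palld lie on opposite sides of it at -0.07 and 0.44.

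The genes most like each of the 5 over the 6 arrays were sought among the listed probe sets with 1 gene symbol. The groups did not overlap for 99.9% of the listed probe sets, so part of each Pearson r follows from how the table was selected. Groups that do not overlap did not by themselves give a high r, which was 0.629 in RMA between Eps8 (1422824_s_at) and Myo1c. An RMA r of 0.95 or more was reached by 56 listed probe sets with Eps8, 80 with Ptpro, 25 with Actn1, 43 with Myo1c and 23 with Palld. These are small parts of the listed probe sets, which are 4.41% of all 45101. For Eps8 the closest was the transcription factor gene E2f6 (r = 0.997 in RMA and 0.960 in MAS5), then 1600022D10Rik (0.991 and -0.162) and Gm1070 (0.990 and 0.984). Genes close to Ptpro included Epsti1 (0.993 and 0.984) and AI448005 (0.993 and 0.133).

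Myo1c was closest to Klhl20, a kelch-like gene (0.994 in RMA and 0.949 in MAS5), Rps28 (0.988 and 0.551) and Dab2 (0.987 and 0.236). For Actn1 the closest were Gm17396 (0.987 and 0.109), Uts2 (0.983 and 0.104) and Spink12 (0.983 and 0.378). For Palld they were Jade1 (0.986 and -0.569), Zcchc14 (0.985 and -0.017) and Ppifos (0.980 and -0.367). Of the genes named here, E2f6, Gm1070 and Epsti1 also reached 0.95 in MAS5. Klhl20 fell just short of that, and for the named neighbours of Actn1 and Palld the MAS5 r was at most 0.378.

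Lists of 191 other genes of the actin network had 11 genes named by the deposited table (5.76%), near the 5.97% of all 21900 protein-coding genes of the reference table. Of the 11, 8 had a higher and 3 a lower mean in Gfi1-KD, and the median log2 RMA difference was 0.16, beside 0.15 for all 1512 named genes. Tln2, a talin that links integrins to actin, was the only one beyond 2-fold in the probe set used. It read 8.11, 6.96 and 9.25 in Gfi1-KD, against 6.38, 6.36 and 5.68 in Gfi1-KI (3.91-fold). Like Eps8 and Ptpro, it was highest on Gfi1-KD replicate 3 and lowest on Gfi1-KI replicate 3.

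In the RMA signals, the other actin genes differed by less than 2-fold. Some MAS5 log2 differences were larger, at -1.72 for Arpc5, 1.17 for Fermt2 and -0.64 for the brighter Sptbn1 probe set. Others were not, at 0.16 for Arpc5l and 0.28 for Myo9a. The folds that follow are in RMA. Among adhesion and membrane linkers, the kinase gene Ptk2b was 1.24-fold higher, and Fermt2, a kindlin, was higher too. Among cross-linkers, the spectrin gene Sptbn1 was 1.29-fold lower in its brighter probe set and 1.99-fold lower in the dimmer one, while the filamin gene Flnc was higher. For branching, the ARP2/3 subunit genes went in opposite directions, with Arpc5l 1.22-fold higher and Arpc5 1.21-fold lower. Of the capping and monomer-binding genes, Capg was 1.22-fold higher, Tmod2 was higher and Cap2 was 1.15-fold lower, and of the myosins Myo9a was 1.24-fold higher. Arpc5, Cap2, Tmod2, Flnc and Fermt2 lay below the level filter and were not in the limma fit. None of the others passed its adjusted threshold, and the 180 unnamed genes were not analysed here.

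**Figure D5:**
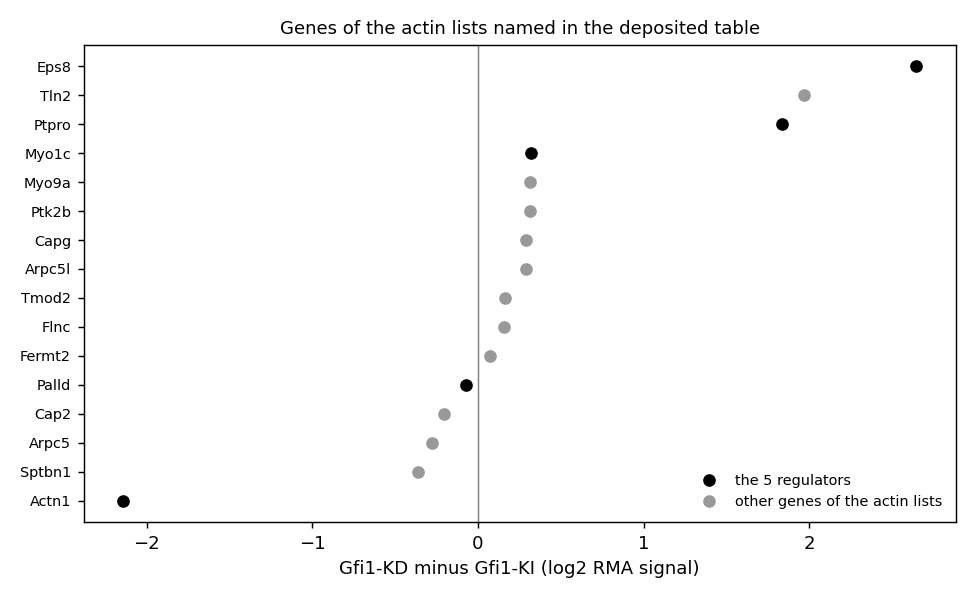
Difference in mean log2 RMA signal, Gfi1-KD minus Gfi1-KI, of the 16 genes of the actin lists that the deposited table names, with Eps8, Ptpro, Myo1c, Palld and Actn1 in black and the 11 others in grey. Eps8, Tln2, Ptpro and Actn1 lie beyond 1 log2 unit, and the others lie between -0.36 and 0.32.

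Markers of a pair of marrow lineages differed alongside these genes. The table names 5.97% of all protein-coding genes, and of its 1512 named genes 862 were higher and 650 lower in Gfi1-KD. Being named required an unadjusted p under 0.05 in the authors' variance analysis. The gap between the groups in the sums below therefore follows largely from that selection. Of 20 neutrophil markers the table names 4 (Ltf, Lrg1, Itgb2l and Ceacam10), all lower in Gfi1-KD. Their summed RMA signal was 445 to 2783 in Gfi1-KD, against 12564 to 30309 in Gfi1-KI. It was highest on Gfi1-KI replicate 3, where Actn1 was highest as well, but lowest on Gfi1-KD replicate 3, where Actn1 was the highest of its group. Of 20 monocyte and macrophage markers it names 5 (Csf1r, Cx3cr1, Ccr2, Adgre1 and Ctss), all higher. Their sum was 24234 to 37784 in Gfi1-KD, against 12007 to 18622 in Gfi1-KI. It was highest on Gfi1-KD replicate 3, as were Eps8 and Ptpro, and lowest on Gfi1-KI replicate 2, where they were not. The sum is of linear signals, so the brightest markers weigh most in it. Taken singly, Csf1r, Ccr2, Adgre1 and Ctss were lowest on Gfi1-KI replicate 2. Cx3cr1 was lowest on Gfi1-KI replicate 3, as were Eps8 and Ptpro.

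Of 19 stroma and endothelium markers the table names Pecam1, which ran from 9.81 to 10.29 in Gfi1-KD, against 8.85 to 9.42 in Gfi1-KI. It names 0 of 15 megakaryocyte and 0 of 12 erythroid markers, and the unnamed members of each list were not analysed here. The part of these cell types in the differences of Eps8, Ptpro, Actn1 and Myo1c was not tested. The marker lists were chosen with earlier results of the same arrays known and are no independent evidence of a direction.

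Across all probe sets, the median correlation of an array with the other 5 was 0.905 for Gfi1-KI replicate 2, the lowest, and 0.919 to 0.932 for the rest. Leaving that array out gave log2 RMA differences of 2.94, 2.92 and 1.84 for the Eps8 probe sets, 1.81 for Ptpro, -2.41 for Actn1, 0.34 for Myo1c and -0.09 for Palld. These kept the signs seen with all arrays, as they had to, because the RMA groups did not overlap for any of these probe sets. Precision is limited by having 3 arrays a group, and an exact permutation test of 3 against 3 could not go below 0.1.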

How the data were processed

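Values were those of 6 arrays, grouped by the genotype label, and replicate numbers, given in accession order, pair no arrays. The value table holds intensities on a linear scale, summarised by the authors with MAS5, per the submitters' processing notes. Per the file headers, the authors' comparison table gives log2 RMA signals, the p-value and step-up p-value of their variance analysis, the kd over wt ratio and a fold score that is negative where kd is lower. The software behind it is not given. Its columns were matched to the labels by the number in each title. Taking wt as Gfi1-KI, the deposited ratio was recomputed within 0.1% for 100% of the filled rows.

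MAS5 signals under 1 were set to 1 and log2 was taken. Probe sets with a mean log2 signal of at least the median of 6.95 were tested with limma 3.58.1 in R 4.3.3 (lmFit, eBayes with a trend, two-sided), which was also tested on simulated data. Differences are Gfi1-KD minus Gfi1-KI, and folds are ratios of geometric means. Other steps used Python 3.11.15, pandas 2.3.3, numpy 2.4.6 and scipy 1.17.1, and figures matplotlib 3.10.9.

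The 5 genes, the actin and marker lists and the tests were chosen with earlier results of these data known. Named genes were all probe sets of the 5, the 8 actin list genes with the largest RMA difference with values and the others by direction, the listed markers, and for each of the 5 the 3 genes with the highest r, of which 1 is not reported here. A gene with several probe sets is represented by the one with the highest mean RMA signal. Mgst1 was named after values were seen. Alternatives were the level filter, quantile normalization, centring, an added constant of 16, linear means, MAS5 for RMA, an analysis of variance and leaving out each array.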

Additional observations from a re-analysis of the deposited data

How the results depend on the processing

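Of 119 recomputed differences of the 7 probe sets, 118 kept their sign. In 84 of them 1 array was left out. Where the groups do not overlap, leaving out an array cannot reverse the sign, so most of these 84 outcomes were fixed in advance. The exception was Palld, at 0.436 with MAS5 in place of RMA (-0.07 in RMA). The other MAS5 recomputations were set against the MAS5 difference, so those of Palld count as kept. All of them were positive, opposite to every RMA value of Palld. Only Myo1c moved by more than the spread between replicates without a change of sign, at 0.466 with MAS5 in place of RMA (0.319 in RMA). With 1 array left out, the log2 RMA differences ran from 1.86 to 3.13, 1.99 to 3.23 and 1.36 to 1.90 for the Eps8 probe sets, 1.35 to 2.34 for Ptpro, -2.54 to -1.47 for Actn1, 0.27 to 0.40 for Myo1c and -0.09 to -0.05 for Palld. The MAS5 differences ran from 1.78 to 2.94, 1.74 to 3.22 and 1.52 to 2.31 for Eps8, 1.41 to 2.44 for Ptpro, -2.63 to -1.56 for Actn1, 0.39 to 0.59 for Myo1c and 0.18 to 0.74 for Palld. The smallest sizes for Eps8, Ptpro and Actn1 were those without Gfi1-KI replicate 3.

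limma called 0 probe sets under each filter, normalization, added constant and omitted array, and the plain analysis of variance called 1. The count at an unadjusted p under 0.05 was 1217 with all arrays, 655 and 536 when Gfi1-KD replicate 1 or 3 was omitted, and 2120 when Gfi1-KI replicate 1 was. It was 2311 of 45037 with no level filter and 690 of 11260 with the filter at the 75th percentile, which change how many probe sets are tested. The cause of the other shifts was not tested. No paired analysis was possible because the labels give no replicate numbers shared by the groups. Array signals near the floor limit what Palld can show.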
